A study of Mus musculus with 23 samples.

Results

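The genes described here are insulin-like growth factor 1 (Igf1), the receptor that binds it (Igf1r) and the IGF-binding proteins Igfbp2, Igfbp3, Igfbp4, Igfbp5, Igfbp6 and Igfbp7. They were taken as the rows of the count table whose Ensembl identifiers carry these symbols, which gave 8 of 55487 genes, and all 8 passed the filter on low counts that left 15748 genes for testing. RNA-seq libraries had been made from mouse embryonic fibroblasts (MEFs, primary cultures, FVB/NJ strain), grown from mid-gestation embryos without head and organs. Before RNA isolation, cells received solvent (vehicle) or, for 5 h, 10 nM of the synthetic glucocorticoid dexamethasone (Dex), which binds the glucocorticoid receptor (GR). The 23 libraries comprised 4 genotypes in vehicle and under Dex, with 3 libraries per group except for GRD/D vehicle, which had 2. Cells of the GRwt/wt groups carried the unmodified receptor, those of the GRD/D groups threonine in place of an alanine within the DNA-binding domain, those of the GRL/L groups alanine in place of an isoleucine within the ligand-binding domain, and those of the GRD+L/D+L groups both changes. The L alleles were introduced by CRISPR/Cas9 in zygotes, the D+L line went back to 1 pup, and per the labels the cultures of a genotype derived from different mice, so that genotype and culture history cannot be told apart beyond the spread between these cultures. The question asked of these genes was whether their levels moved with Dex, with the receptor variant, or with the replicate number.

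IGF1 is a secreted peptide hormone that is made in liver under growth hormone control and locally by fibroblasts and other mesenchymal cells. It signals through a receptor tyrosine kinase to the PI3K-AKT and MAP kinase routes, which favour growth and survival. IGF-binding proteins hold IGF1 and IGF2 in the extracellular space with high affinity, prolong their life and limit or aid their access to the receptor, while IGFBP7 is a relative with low affinity for IGF. Glucocorticoids are known to act on several of these genes in bone and connective tissue cells.

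Library totals ranged from 16452539 to 23117080 counts. All 8 fibroblast markers examined (Col1a1, Col1a2, Col3a1, Pdgfra, Pdgfrb, Vim, Thy1 and Fn1) were detected in each library, with summed levels of 39672 to 64279 CPM (counts scaled to library size with TMM factors). GRwt/wt vehicle replicate 1 stood apart, since its best Spearman correlation to any other library was 0.916, where the remaining libraries reached 0.973 or more, and it held 4.08 CPM of Nr3c1, the gene of GR, against 44.5 to 265 CPM elsewhere. Its 4 skeletal muscle markers (Myod1, Myog, Des and Acta1, 2 of them with counts) summed to 267 CPM. The sum was 172 CPM in GRwt/wt Dex replicate 1 and 11.5 to 47.5 CPM in the remaining libraries. In GRwt/wt vehicle replicate 3, 10 macrophage markers summed to 4901 CPM, while the other 5 libraries of that genotype reached 17.4 to 100.4 CPM. Both vehicle libraries stayed in the fits. Where leaving out either of them changed a call of any of the 8 genes described here, the value without it is given. Fkbp5, a GR target, rose with Dex in GRwt/wt by 3.49 on the log2 scale (SE 0.27, edgeR quasi-likelihood test, adjusted p = 2.67e-06). In these bulk samples, fewer cells expressing a gene and less RNA of that gene per cell cannot be told apart.

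Per length of exon, Igfbp7 was the most abundant of the 8 transcripts in GRwt/wt vehicle, at 428 ± 110 RPKM (counts scaled to exon length and library size, SD, n = 3). Igfbp5 (154 ± 34.2 RPKM), Igfbp6 (101 ± 53.8), Igfbp4 (73.0 ± 8.77), Igfbp3 (45.4 ± 19.8) and Igfbp2 (42.7 ± 28.4) followed in this order, and the ranges of neighbouring genes among these 5 overlapped. Igf1 (9.88 ± 8.51 RPKM) and Igf1r (5.24 ± 0.186 RPKM) were lowest and overlapped each other. In GRL/L vehicle the order at the top was exchanged, with Igfbp5 at 540.2 ± 58.6 RPKM and Igfbp7 at 229.8 ± 14.1 RPKM (n = 3). Counts of Igfbp7 carry a limit, because 85 of its exon bases (7.03%) lie over exons of Polr2b on the other strand and the strand setting of the counting was not given in the sources used here.

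The spread over the 23 libraries was uneven. Igfbp2 had an SD of 2.90 on the log2 scale, larger than that of 99.7% of the genes tested, whose median SD was 0.48. Igf1r had an SD of 0.33 and ranged only from 84.8 to 209 CPM, and Igf1 had an SD of 1.09 (larger than 84.4% of genes). The other binding proteins lay between 0.61 (Igfbp3) and 0.90 (Igfbp5).

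**Figure D1:**
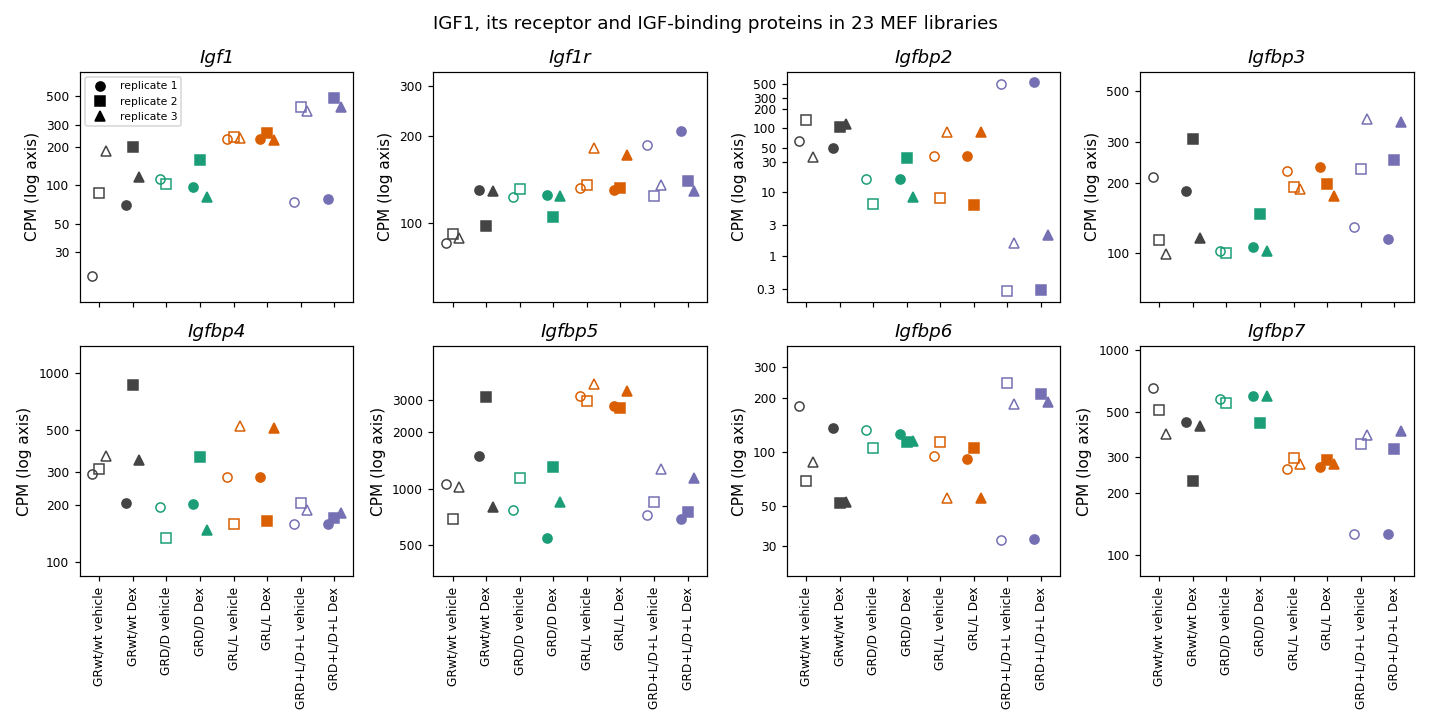
CPM (log axis, TMM-scaled) of each of the 8 genes in the 23 libraries, by genotype and treatment on the x axis, with open symbols for vehicle, filled symbols for Dex and the symbol shape giving the replicate number. Igfbp5 lies at 2716 CPM or more in GRL/L and in 1 GRwt/wt Dex library, Igf1r lies lowest in GRwt/wt vehicle, and Igfbp2 spans 0.274 to 529 CPM with its extremes within GRD+L/D+L.

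Igfbp5 and Igfbp2 are the members on which most of the following turns, Igfbp5 because it was the only one that edgeR called between genotypes in the fit of all libraries, and Igfbp2 because of its spread. They are neighbours on mouse chromosome 1 and face each other tail to tail. Igfbp2 (ENSMUSG00000039323) occupies 72824503 to 72852474 on the plus strand and Igfbp5 (ENSMUSG00000026185) 72857932 to 72874884 on the minus strand (GENCODE M21, GRCm38), with a gap of 5457 bases. Their levels were nearly unrelated across libraries (Spearman's rho -0.04 over 23 libraries, which include vehicle and Dex libraries of the same genotype). The 250 bases before the first RefSeq start of Igfbp2 (GRCm38.p6, chr1:72824230-72824479, plus strand) and before the start of Igfbp5 (chr1:72874866-72875115, minus strand) are shown because these are the promoters of the most variable and of the called gene, 5′ to 3′, with capitals for the GR half-site AGAACA and the GC box GGGCGG.
Igfbp2: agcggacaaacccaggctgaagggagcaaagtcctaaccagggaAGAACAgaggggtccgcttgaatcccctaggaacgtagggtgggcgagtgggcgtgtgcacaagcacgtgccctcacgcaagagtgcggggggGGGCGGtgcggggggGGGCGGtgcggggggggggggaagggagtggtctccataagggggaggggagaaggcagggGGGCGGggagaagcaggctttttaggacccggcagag
Igfbp5: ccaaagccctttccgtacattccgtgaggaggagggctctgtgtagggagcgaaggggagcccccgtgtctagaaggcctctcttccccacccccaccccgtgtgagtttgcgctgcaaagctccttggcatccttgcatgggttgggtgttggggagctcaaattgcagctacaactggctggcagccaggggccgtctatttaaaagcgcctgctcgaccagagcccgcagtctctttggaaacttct

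Both strands of the 250-base stretches were searched for 4 motifs: the full GR site (AGAACA and TGTTCT with 3 bases of any kind between them, which contains the half-site), its half-site AGAACA or TGTTCT, the TATA motif TATAAA or TTTATA, and the GC box GGGCGG or CCGCCC. The Igfbp2 stretch held 1 half-site, 206 to 201 bases before the start, and 3 GC boxes. The Igfbp5 stretch held none of these letters. RefSeq lists 9 starts for the 8 genes, and 1 of the 9 held a half-site, against 16.1% of all 32841 promoters of this length. GC boxes occurred in 3 of the 9 (Igfbp2, Igfbp7 and Igf1r) against 32.7% of all promoters, the TATA motif in 2 of the 9 (Igfbp4 and Igfbp6) against 12.4%, and the full site in 0 of the 9 against 0.00913%. These shares are descriptions of letters in a short window.

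Between genotypes, Igfbp5, a binding protein of connective tissue and bone that also attaches to matrix, was higher in GRL/L than in GRwt/wt in the absence of ligand. The 3 GRL/L vehicle libraries held 3157, 2944 and 3632 CPM. The GRwt/wt vehicle libraries held 1058, 686 and 1022 CPM, the GRD/D vehicle libraries 767 and 1142 CPM, and the GRD+L/D+L vehicle libraries 718, 846 and 1269 CPM. All 3 GRL/L values thus lay above all 8 of the other vehicle values. The log2 fold change (LFC) of GRL/L against GRwt/wt was 1.81 (SE 0.40, adjusted p = 0.00424 by the quasi-likelihood test of edgeR with Benjamini-Hochberg adjustment over 15748 genes). Genes count as called where the adjusted p does not exceed 0.05 and the LFC reaches 1 in either direction. In this comparison 1 of the 8 members was called, while 7.78% of all genes were called (4.93% higher and 2.84% lower) and 9.79% by DESeq2. The call held in all 32 alternatives tried, with LFCs from 1.62 to 2.22, the latter without both GRwt/wt vehicle replicates 1 and 3.

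The comparison of GRL/L with the other mutants pointed the same way for Igfbp5 but missed the threshold. Against GRD/D in vehicle the LFC was 1.77 (SE 0.47, adjusted p = 0.0619), and for GRD+L/D+L against GRL/L it was -1.78 (SE 0.40, adjusted p = 0.0946), both from edgeR with Benjamini-Hochberg adjustment. No member was called in the second comparison, where 0.0953% of all genes were (0.0127% higher and 0.0826% lower), and 1 member had an unadjusted p under 0.05. Igfbp5 was the 1 member whose groups did not overlap there, against 23.4% of all genes. With DESeq2, which called 2.29% and 1.1% of all genes in these comparisons, the adjusted p values were 0.00404 and 0.00261, and with only the genotypes compared in the fit, where 6.5% and 1.42% of all genes were called, they were 0.00256 and 0.00907. Both also passed without GRwt/wt vehicle replicates 1 and 3 (0.0231 and 0.0416) and without GRwt/wt Dex replicate 2 (0.0216 and 0.0429), a library that belongs to neither side of these comparisons and enters them through the shared estimate of the spread. Without GRwt/wt Dex replicate 3 or GRwt/wt vehicle replicate 1 the GRL/L against GRD/D value alone passed (0.0293 and 0.0253). In the remaining alternatives neither comparison was called. All single libraries whose omission gave a call were thus GRwt/wt libraries, from neither side of these comparisons. Among the settings that left out no single library, the edgeR adjusted p values for Igfbp5 reached 0.0953 for GRL/L against GRD/D and 0.104 for GRD+L/D+L against GRL/L. In the double mutant, which carries the L change too, the LFC of Igfbp5 against GRwt/wt in vehicle was 0.03 (SE 0.39).

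Under Dex the Igfbp5 groups overlapped. GRL/L Dex libraries held 2788, 2716 and 3326 CPM, whereas GRwt/wt Dex libraries held 1496, 3118 and 797 CPM, so that 1 GRwt/wt library reached the GRL/L range. The LFC was 0.71 (SE 0.39, edgeR adjusted p = 0.294), and 0 of the 8 members were called between GRL/L and GRwt/wt under Dex, against 2.59% of genes (1.37% higher and 1.23% lower). No member had an unadjusted p under 0.05 there in edgeR or in DESeq2, which also called 0 (4.89% of genes). Without GRwt/wt Dex replicate 2, the library with 3118 CPM, Igfbp5 was called (LFC 1.36, adjusted p = 0.0398), and without replicate 3 its LFC was 0.35. GRwt/wt Dex replicate 2 also had the highest sum of 4 adipocyte markers (Adipoq, Plin1, Fabp4 and Cidec), at 68.8 CPM with counts for all 4, against 1.65 to 22.5 CPM in the other 22 libraries, and the part of such cells in the levels of Igfbp4 and Igfbp5 was not tested. GRD/D Dex (543, 1302 and 849 CPM) and GRD+L/D+L Dex libraries (687, 751 and 1137 CPM) had LFCs of -1.01 (adjusted p = 0.322) and -1.07 (adjusted p = 0.127) against GRwt/wt Dex in the same edgeR fit, and without that library the values were -0.35 and -0.42.

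**Figure D2:**
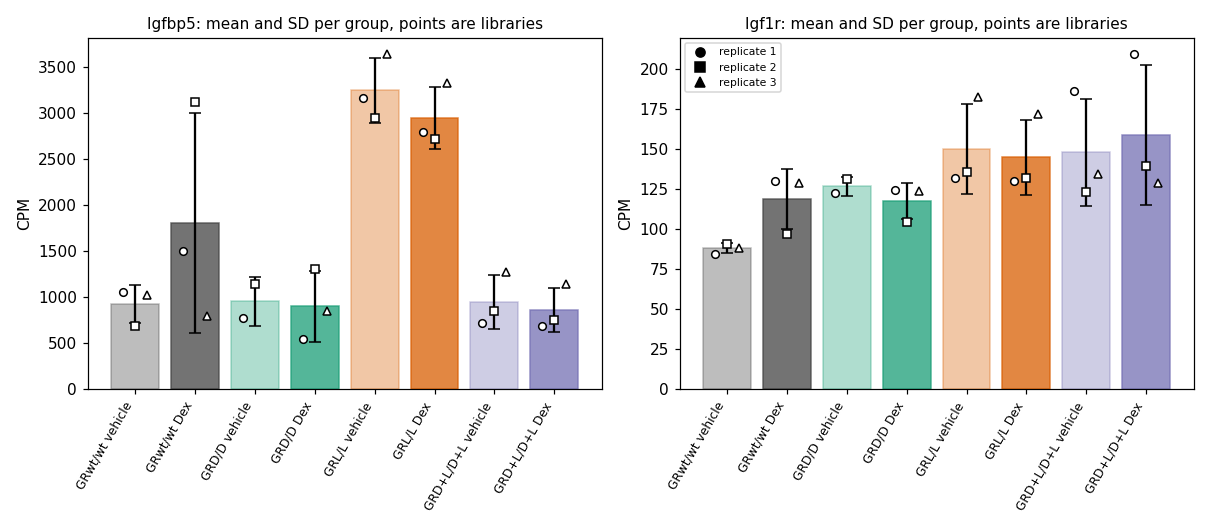
Mean CPM per group (bars from 0, error bars SD, points for libraries with the replicate number as symbol) of Igfbp5 on the left and Igf1r on the right, by genotype and treatment. The GRL/L libraries of Igfbp5 lie between 2716 and 3632 CPM, a range that 1 GRwt/wt Dex library (3118 CPM) also reaches, and the 3 GRwt/wt vehicle libraries of Igf1r lie below all others.

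Igf1r, the receptor tyrosine kinase of the system (ENSMUSG00000005533, chromosome 7, 67952827 to 68233668, plus strand), differed by less but more evenly. GRwt/wt vehicle libraries held 84.8, 91.0 and 88.1 CPM, and the other 20 libraries held 97.0 CPM or more. In vehicle, GRD/D libraries held 123 and 131 CPM, GRL/L libraries 132, 136 and 182 CPM, and GRD+L/D+L libraries 186, 123 and 135 CPM. Each mutant group therefore lay wholly above GRwt/wt in vehicle. The LFC against GRwt/wt was 0.75 (SE 0.20, edgeR adjusted p = 0.0152) for GRD+L/D+L and 0.77 (SE 0.20, adjusted p = 0.0106) for GRL/L, past the adjusted p and short of the fold required for a call, and 0.53 (SE 0.22, adjusted p = 0.371) in GRD/D. For GRL/L, leaving out its replicate 3 moved the adjusted p to 0.0607, and for GRD+L/D+L leaving out its replicate 1 moved it to 0.0579. Without GRwt/wt vehicle replicates 1 and 3 the adjusted p values were 0.103 and 0.126 at LFCs of 0.70 and 0.69.

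Under Dex, GRwt/wt libraries held 130.2, 97.0 and 129 CPM of Igf1r and overlapped with each mutant. The LFCs against GRwt/wt Dex were 0.42 for GRD+L/D+L, 0.29 for GRL/L and -0.01 for GRD/D, with edgeR adjusted p values of 0.233, 0.402 and 0.995. Among the GRwt/wt libraries, each Dex value lay above each vehicle value (LFC 0.43, SE 0.20, adjusted p = 0.302), which held for 9.46% of all genes in either direction.

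Igf1 (ENSMUSG00000020053, chromosome 10, 87858265 to 87937042, plus strand), the ligand itself, varied most within GRwt/wt and within GRD+L/D+L. GRwt/wt vehicle libraries held 19.5, 87.0 and 187 CPM, and GRD/D vehicle libraries 113 and 102 CPM. GRL/L vehicle libraries were close to each other at 229.9, 241 and 235.5 CPM. GRD+L/D+L vehicle libraries held 73.6, 409 and 383 CPM, so that replicates 2 and 3 were the highest of all vehicle libraries while replicate 1 lay within the GRwt/wt range. The GRL/L values lay above the GRwt/wt values in vehicle and under Dex, but the LFCs were 1.27 (SE 0.70, edgeR adjusted p = 0.197) and 0.89 (SE 0.70, adjusted p = 0.464). For GRD+L/D+L the LFC was 1.56 in vehicle (SE 0.71, adjusted p = 0.124) and 1.35 under Dex (SE 0.70, adjusted p = 0.287). In all, groups did not overlap for 4 of the 8 members of GRL/L and GRwt/wt cells without ligand (Igf1, Igf1r, Igfbp5 and Igfbp7), against 38% of all genes.

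The Igf1 differences in vehicle depended on which GRwt/wt libraries were used. Without GRwt/wt vehicle replicate 3, both were called, with an LFC of 2.48 (edgeR adjusted p = 0.0303) for GRD+L/D+L and 2.17 (adjusted p = 0.0414) for GRL/L, in fits that called 12.8% and 17.1% of all genes. Without GRwt/wt vehicle replicate 1, the library that stood apart, they were 1.09 (adjusted p = 0.269) and 0.78 (adjusted p = 0.43), and without both they were 1.71 (adjusted p = 0.208) and 1.42 (adjusted p = 0.271).

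Macrophages are a known source of Igf1, so the 10 macrophage markers (Lyz2, Cd68, Adgre1, Csf1r, C1qa, C1qb, C1qc, Ptprc, Cd14 and Mrc1) were set beside it. All 10 had counts in each GRD/D and GRL/L library and 7 to 10 in the others, and in no library were all of them at 0. In GRwt/wt vehicle their summed level was 41.0, 18.4 and 4901 CPM in replicates 1 to 3, so the library with most Igf1 also had the highest marker sum. The summed level was 277 to 967 CPM in GRD/D vehicle and 317 to 731 CPM in GRL/L vehicle. The libraries with the highest Igf1, GRD+L/D+L replicates 2 and 3 in vehicle and under Dex (383 to 486 CPM), had macrophage sums of 7.93 to 57.5 CPM. The part of these cells in the Igf1 levels was not tested.

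**Figure D3:**
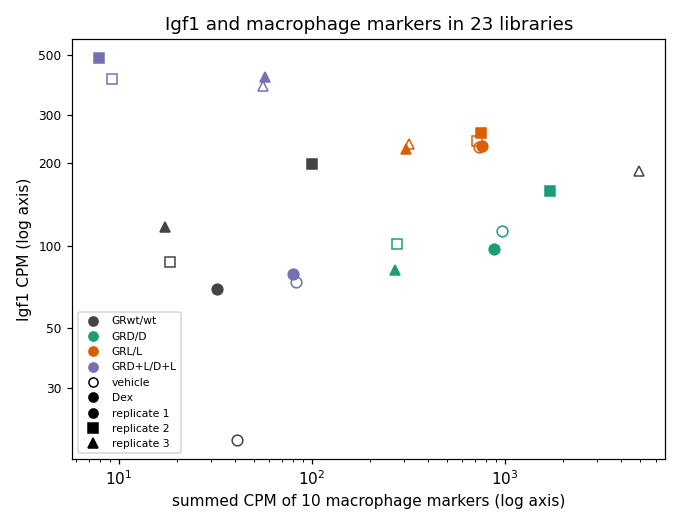
Igf1 in CPM (y axis, log) against the summed CPM of 10 macrophage markers (x axis, log) in 23 libraries, coloured by genotype, open for vehicle, filled for Dex, with the symbol giving the replicate number. GRwt/wt vehicle replicate 3 lies far right at 4901 CPM, and the 4 libraries with the most Igf1 lie at 57.5 CPM or less.

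Igfbp2, a binding protein abundant in fetal tissues, followed the replicate number within GRD+L/D+L and within GRL/L. The GRD+L/D+L vehicle libraries held 495, 0.274 and 1.59 CPM, a 1805-fold range that rests on 6 counts in replicate 2. The Dex libraries of the same numbers held 529, 0.287 and 2.12 CPM, the same order of replicate numbers as in vehicle. GRL/L libraries held 36.4, 8.18 and 89.1 CPM in vehicle and 37.1, 6.25 and 88.1 CPM under Dex, again in the same order. GRwt/wt libraries held 63.5, 137 and 35.9 CPM in vehicle and 49.7, 103 and 116 CPM under Dex, and GRD/D libraries 15.8 and 6.47 CPM in vehicle and 16.0, 33.9 and 8.36 CPM under Dex. No comparison of Igfbp2 between genotypes passed the test (SEs of 1.87 to 2.49 on the log2 scale). All GRD/D values lay below all GRwt/wt values, with LFCs of -2.83 (SE 2.36, edgeR adjusted p = 0.578) in vehicle and -2.21 (SE 1.95, adjusted p = 0.823) under Dex. The LFC of GRD+L/D+L against GRwt/wt in vehicle was 1.07 and turned to -6.41 without GRD+L/D+L vehicle replicate 1.

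GRD+L/D+L replicate 1, the one with high Igfbp2, differed from replicates 2 and 3 in other members and markers. Igfbp6, which prefers IGF2 over IGF1, was at 32.4 CPM in its vehicle library against 245 and 187 CPM in the others, and Igfbp7 was at 126 CPM against 348 and 384 CPM. Its sum of 4 cartilage markers (Sox9, Col2a1, Acan and Matn1) was 239 CPM in vehicle (3 of them with counts) and 290 CPM under Dex (4 with counts), against 10.4 to 70.1 CPM in the other 21 libraries. These sums are not split by marker, so 1 marker may carry them. The part of such cells in the Igfbp2 level was not tested. Across all 23 libraries Igfbp2 and Igfbp6 ran in opposite directions (rho -0.82, and -0.87 without GRwt/wt vehicle replicates 1 and 3), as did Igf1 and Igfbp2 (rho -0.62), whereas Igf1 and Igfbp3 ran together (rho 0.64). These correlations are over libraries that share genotypes and replicate numbers and are given as descriptions.

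Igfbp3, the main carrier of IGF in serum, in vehicle was at 213, 114 and 99.0 CPM in GRwt/wt, 102 and 101 CPM in GRD/D, 227, 193 and 189 CPM in GRL/L and 129, 231 and 376 CPM in GRD+L/D+L. Its highest values again lay in GRD+L/D+L replicates 2 and 3, and the LFC against GRwt/wt was 0.79 (SE 0.42, edgeR adjusted p = 0.186). It was 0.34 without GRD+L/D+L vehicle replicate 3 and 1.22 (adjusted p = 0.0614) without GRwt/wt vehicle replicate 1. For Igfbp3 in GRL/L the LFC was 0.52, and 0.93 (edgeR adjusted p = 0.145) without GRwt/wt vehicle replicate 1. Igfbp4, which mainly holds IGF back from its receptor, was at 292, 309.7 and 366 CPM in GRwt/wt vehicle against 195 and 135 CPM in GRD/D, 283, 160.1 and 527 CPM in GRL/L and 159, 205 and 189 CPM in GRD+L/D+L. GRD/D and GRD+L/D+L thus lay below GRwt/wt in vehicle without overlap, with LFCs of -0.97 (SE 0.56, adjusted p = 0.47) and -0.81 (SE 0.49, adjusted p = 0.247).

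For Igfbp4 the comparison under Dex came closer to the threshold. GRwt/wt Dex libraries held 206, 871 and 347 CPM and GRD+L/D+L Dex libraries 159, 171 and 182 CPM. The groups did not overlap, which was so for 30% of all genes. The LFC was -1.47 (SE 0.50, edgeR adjusted p = 0.0964), and with DESeq2 it was -1.46 (adjusted p = 0.0368) and called, where 5.18% of all genes were. In edgeR, 0 of the 8 members were called in this comparison and 3 had an unadjusted p under 0.05, with 2.75% of all genes called (0.876% higher and 1.87% lower). Without GRwt/wt Dex replicate 2 the LFC was -0.69.

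For Igfbp7 the differences between the L-carrying genotypes and GRwt/wt missed the threshold. GRwt/wt vehicle libraries held 653, 509.6 and 388 CPM, GRD/D 574 and 554 CPM, GRL/L 262, 296 and 276 CPM and GRD+L/D+L 126, 348 and 384 CPM. All values of GRD+L/D+L and GRL/L lay below all values of the other vehicle groups. The LFC against GRwt/wt was -0.85 (SE 0.38, edgeR adjusted p = 0.122) for GRD+L/D+L and -0.90 (SE 0.39, adjusted p = 0.1) for GRL/L. Without GRD+L/D+L vehicle replicate 1 the first was -0.46 (edgeR adjusted p = 0.364). Against GRD/D it was -1.02 (SE 0.42, adjusted p = 0.241) in GRL/L. Fitting GRL/L and GRD/D alone called Igfbp7 (LFC -1.04, adjusted p = 0.000318), Igf1 (1.12, adjusted p = 0.00322) and Igfbp5, in a fit that called 6.5% of all genes, whereas the fit of all libraries called 0 of 8 there, with 2 members at an unadjusted p under 0.05 and 1.08% of all genes called (0.705% higher and 0.375% lower). Groups did not overlap in that comparison for 5 of the 8 members and for 58.4% of all genes.

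Igfbp6 in vehicle was at 181, 68.7 and 88.1 CPM in GRwt/wt, 134 and 105 CPM in GRD/D, 94.7, 114 and 55.5 CPM in GRL/L and 32.4, 245 and 187 CPM in GRD+L/D+L. All genotypes overlapped with GRwt/wt, and the LFCs in vehicle lay between -0.35 and 0.46.

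**Figure D4:**
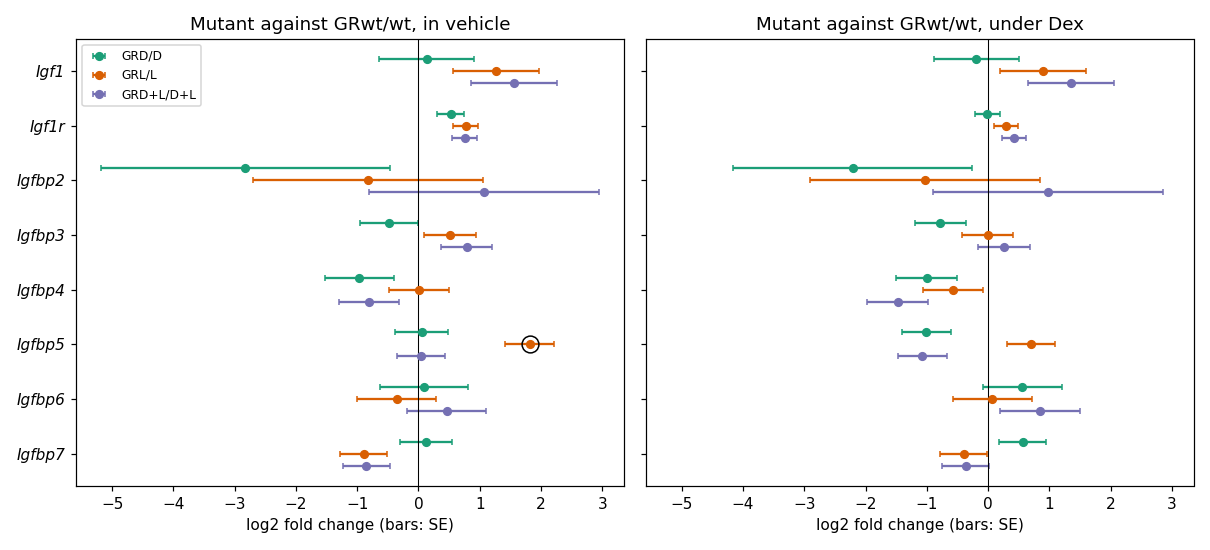
LFC of each mutant against GRwt/wt for the 8 genes in vehicle (left) and under Dex (right), with bars for the SE and a ring around called values. Igfbp5 in GRL/L in vehicle (LFC 1.81) is the only value with a ring, and the bars of Igfbp2 are the longest.

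The median LFC of the 8 members against GRwt/wt in vehicle was 0.61 for GRD+L/D+L, 0.26 for GRL/L and 0.07 for GRD/D, beside -0.05, -0.05 and -0.06 over all genes tested. Under Dex it was 0.34, 0.03 and -0.48, beside -0.03, -0.02 and -0.00. In vehicle, 0 of 8 members were called in GRD/D (0.00635% of genes) and 0 of 8 in GRD+L/D+L (8.32% of genes, 3.62% higher and 4.71% lower), with 1 and 3 members at an unadjusted p under 0.05 in edgeR and 1 and 4 in DESeq2, which called 0 as well (0.191% and 10.7% of genes). Under Dex, 0 of 8 were called in GRD/D (0.254% of genes, 0.0127% higher and 0.241% lower), with 1 member at an unadjusted p under 0.05 in edgeR and 2 in DESeq2, which called 0 (1.77% of genes).

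Groups did not overlap with GRwt/wt in vehicle for 3 members in GRD/D (Igf1r, Igfbp2 and Igfbp4, 23.2% of genes) and for 3 in GRD+L/D+L (Igf1r, Igfbp4 and Igfbp7, 27.4% of genes). Under Dex this was 1 member each, Igfbp2 in GRD/D (23.8% of genes), Igf1 in GRL/L (42.7%) and Igfbp4 in GRD+L/D+L (30%).

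GRD+L/D+L was also compared with GRD/D in vehicle. There, 0 of 8 members were called in edgeR and in DESeq2, with 2 and 3 at an unadjusted p under 0.05, and 1.02% of all genes were called by edgeR (0.324% higher and 0.692% lower) and 2.98% by DESeq2. Igfbp3 was higher and Igfbp7 lower without overlap, as were 44.9% of all genes in either direction, at LFCs of 1.27 (SE 0.49, edgeR adjusted p = 0.203) and -0.98 (SE 0.42, adjusted p = 0.262). Without GRD+L/D+L vehicle replicate 3 that of Igfbp3 was 0.83, and without replicate 1 that of Igfbp7 was -0.62.

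Dex itself moved none of the members past the threshold in any genotype. In GRwt/wt, where edgeR called 0.159% of all genes, all 25 of them higher, the LFCs ran from -0.49 (Igfbp7 and Igfbp6) to 0.97 (Igfbp5, SE 0.39, edgeR adjusted p = 0.257), with a median of 0.41 beside -0.01 over all genes. Igf1r and Igfbp5 had an unadjusted p under 0.05 there. DESeq2 also called 0 members, though it called 286 of all genes (1.82%), of which 121 were higher. Without GRwt/wt Dex replicate 2 the LFC of Igfbp5 was 0.31, and that of Igfbp4 turned from 0.56 to -0.22. The median LFC of the members was -0.01 with both changes, -0.02 for GRL/L and 0.03 for GRD/D, genotypes in which 0% of genes were called by edgeR, 0 members had an unadjusted p under 0.05 and DESeq2 called 0 members (0.0318%, 0% and 0.0127% of genes). Vehicle and Dex groups did not overlap for 1 member in GRD/D (Igfbp3, against 21.3% of genes) and for 0 members in GRD+L/D+L (3.37%) or GRL/L (4.84%).

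Vehicle and Dex libraries could be compared by replicate number in 2 genotypes. In GRD+L/D+L and GRL/L, libraries with the same replicate number deviated together, and the ratio of Dex to vehicle within a number had a median of 1.07-fold and 1.03-fold either way, with maxima of 1.33-fold and 1.31-fold, both for Igfbp2. All 24 ratios of 8 genes and 3 replicate numbers stayed under 1.5-fold in each of these genotypes. Some of these small differences had 1 direction. Igfbp5 was lower with Dex in 3 of 3 pairs of both genotypes, by at most 1.13-fold, and Igf1r was lower in 3 of 3 pairs of GRL/L. Igf1 and Igfbp2 were higher in 3 of 3 pairs of GRD+L/D+L. The Igfbp2 pair of replicate 2 there rests on 6 counts in vehicle and 5 under Dex. The share of all genes with 3 of 3 pairs in 1 direction was not counted, so these directions are descriptions only. With the replicate number as a block, the LFC of Igfbp5 was -0.13 with both changes and -0.14 with the L change alone (SE 0.36 each, edgeR adjusted p values of 1). The largest ratio between vehicle libraries of a genotype was 10.9-fold in GRL/L and 1805-fold in GRD+L/D+L, again for Igfbp2. In GRwt/wt, same-numbered libraries did not all deviate together, and the 2 numbers shared by GRD/D vehicle and Dex did not either, so ratios by number are not given for these genotypes.

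**Figure D5:**
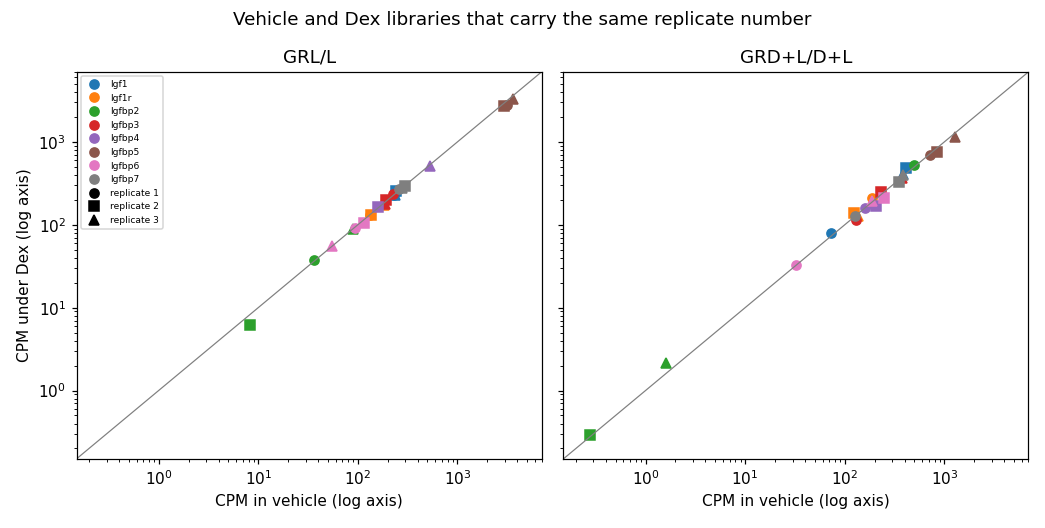
CPM under Dex (y axis, log) against CPM in vehicle (x axis, log) for libraries with the same replicate number in GRL/L (left) and GRD+L/D+L (right), with colours for the 8 genes, symbols for the replicate number and a grey line of equality. In both genotypes all 24 points lie within 1.33-fold of the line.

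The difference in the Dex response between each mutant and GRwt/wt was tested by an interaction term, and 0 of 8 members were called for any mutant (0% of genes for GRD/D and 0.0254% each for GRL/L and GRD+L/D+L). No member had an unadjusted p under 0.05 in edgeR. DESeq2 called 0 members as well (0.14% of genes for GRD+L/D+L, 0.127% for GRL/L and 0.0635% for GRD/D), with 1, 1 and 0 members at an unadjusted p under 0.05. The most negative values were those of Igfbp5, at -1.11 (SE 0.55, edgeR adjusted p = 0.969) for GRD+L/D+L, -1.11 (SE 0.55, adjusted p = 0.796) for GRL/L and -1.06 (SE 0.58, adjusted p = 0.773) for GRD/D, and all 3 share the GRwt/wt libraries. Without GRwt/wt Dex replicate 2 these Igfbp5 values were -0.45, -0.45 and -0.40. In a fit with replicate block, whose numbers do not pair the GRwt/wt libraries, 0 members were called in these comparisons (0.102%, 0.14% and 0.0699% of genes in the same order). There 1, 2 and 2 members had an unadjusted p under 0.05. In Dex against vehicle the block fit also called 0 members (1.26% of genes in GRwt/wt, 0.0445% in GRD/D and 0% in the others). An unadjusted p under 0.05 was found there for 3 members in GRwt/wt and 0 in the other genotypes.

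Other genes of the pathway were called between genotypes, and none of them with Dex. Of 14 listed ligands, receptors, carriers and proteases, 9 were tested, and Ins1, Ins2, Insrr, Igfbp1 and Igfals had too few counts. Igf2r, the mannose 6-phosphate receptor that clears IGF2, was at 713 ± 184 CPM in GRwt/wt vehicle and rose to 1772 ± 106 CPM in GRL/L vehicle (n = 3 each, LFC 1.31, SE 0.19, edgeR adjusted p = 0.000338), and it was called in GRL/L under Dex as well (LFC 1.05, adjusted p = 0.00513), where the LFC was 0.93 without GRwt/wt Dex replicate 3. In the other mutants Igf2r also lay above GRwt/wt in vehicle (500 to 829 CPM), though not called. GRD/D vehicle libraries held 1045 to 1240 CPM and GRD+L/D+L vehicle libraries 1016 to 1495 CPM. Ghr, the growth hormone receptor, was higher in GRL/L vehicle (LFC 1.21, adjusted p = 0.0163), but the call was lost when GRwt/wt vehicle replicate 1 was left out (0.83) and when GRL/L vehicle replicate 2 was left out (1.12, adjusted p = 0.055). Stc2, a secreted inhibitor of the IGFBP4 and IGFBP5 protease PAPP-A, fell from 8.45 ± 2.78 to 1.96 ± 1.09 CPM in GRD+L/D+L vehicle (n = 3 each, LFC -2.11, SE 0.45, adjusted p = 0.00461), was lower under Dex in GRL/L (LFC -1.58, adjusted p = 0.0428) and GRD+L/D+L (LFC -2.44, adjusted p = 0.00679), and lower in GRD+L/D+L than in GRD/D (LFC -2.11, adjusted p = 0.0351). These Stc2 calls held in 31, 17, 30 and 25 of 32 alternatives, and the GRL/L call under Dex was lost without GRwt/wt Dex replicate 2 (adjusted p = 0.131).

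Pappa2, an IGFBP5 protease at 0.549 ± 0.47 CPM in GRwt/wt vehicle, was called higher in GRD+L/D+L vehicle (LFC 2.11, edgeR adjusted p = 0.0319), but not without GRwt/wt vehicle replicate 1 (adjusted p = 0.0793) or 3 (0.0638), nor without GRD+L/D+L vehicle replicate 2 (0.157) or 3. In this list, 2 of 9 were called higher and 0 lower in GRL/L vehicle, beside 4.93% and 2.84% of all genes, and 1 in each direction in GRD+L/D+L vehicle, beside 3.62% higher and 4.71% lower. In vehicle the median LFC of the list against GRwt/wt was positive for each mutant, at 0.96 for GRL/L, 0.65 for GRD/D (0 called) and 0.64 for GRD+L/D+L, beside -0.05, -0.06 and -0.05 over all genes. Under Dex it was 0.28, -0.11 and 0.05 in the same order, beside -0.02, -0.00 and -0.03. Igf2, the other ligand, was not called and was chosen for mention after its values were seen, and it ranged from 0.0575 to 55.4 CPM over the libraries.

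Of 9 relatives with an IGFBP domain 6 were tested, and in GRL/L vehicle 0 were called higher and 1 lower, beside the same shares of all genes. Ccn2, a matrix-associated growth factor, fell from 69.1 ± 17.9 CPM in GRwt/wt vehicle to 23.9 ± 4.05 CPM in GRL/L vehicle (n = 3 each, LFC -1.53, SE 0.33, edgeR adjusted p = 0.00323). In the other mutants Ccn2 also lay below GRwt/wt in vehicle (51.4 to 87.1 CPM), though not called. GRD/D vehicle libraries held 32.0 to 44.1 CPM and GRD+L/D+L vehicle libraries 21.1 to 47.0 CPM. Under Dex Ccn2 was lower in GRD+L/D+L (LFC -1.62, adjusted p = 0.0106), a call lost without GRwt/wt Dex replicate 3 (adjusted p = 0.0553), and lower in GRL/L (LFC -2.14, adjusted p = 0.0021).

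Of 25 genes that act below the receptor 24 were tested. Grb14, an adaptor that restrains insulin receptor signalling, was lower in GRD+L/D+L vehicle (LFC -1.60, adjusted p = 0.00416) and in GRL/L vehicle (LFC -1.05, adjusted p = 0.0297), the second call being lost without any single GRL/L vehicle library or without GRwt/wt vehicle replicate 1 or 2. Grb14 was also lower in GRD+L/D+L against GRwt/wt under Dex (LFC -1.41, adjusted p = 0.0258) and against GRD/D in vehicle (LFC -1.52, adjusted p = 0.043), calls that held in 28 and 17 of 32 alternatives. Pik3r1, a regulatory subunit of PI3K, passed narrowly in GRL/L vehicle (LFC 1.34, adjusted p = 0.0499) and was kept in 7 of 32 alternatives, with an LFC of 0.84 without GRwt/wt vehicle replicate 1 and 0.77 without replicates 1 and 3. No gene of the 3 lists was called by edgeR with Dex in any genotype.

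For each member, the 2 other genes of most similar pattern were taken by Spearman's rho over the 23 libraries among 13233 genes with a mean of at least 1 CPM. Igfbp2 ran with Sdc4, a heparan sulphate proteoglycan (rho 0.96), and Ppp1r26 (0.94). Igf1 ran with Gopc (0.95) and Fbn1, the gene of the microfibril protein fibrillin-1 (0.95), Igfbp7 with Surf4 (0.95) and the smooth muscle gene Tagln (0.95), and Igfbp6 with Mxra7 (0.93) and Mrvi1 (0.92). Lower values were found for Igfbp3 with Boc (0.89) and Tshz2 (0.86), Igf1r with Sin3a (0.89) and Pcdh19 (0.89), Igfbp5 with Bmp6, a bone morphogenetic protein (0.84), and Ccdc62 (0.80), and Igfbp4 with N4bp2l1 (0.83) and Olfml1 (0.77). All 16 values are the highest of many and share the same libraries.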

How the data were processed

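RNA-seq counts of 23 libraries were used. Per the labels and the study's methods, the authors used TruSeq kits, mapped reads to mm10 (GRCm38) with HISAT2 2.1.0, kept unique alignments and deposited raw counts per Ensembl gene from featureCounts 2.0.0. Annotation release and strandedness are not given in the sources used here. Counts of 55487 genes were filtered with filterByExpr (15748 left), scaled with TMM and fitted in R 4.3.3 with edgeR 4.0.16 (quasi-likelihood, 1 mean per group, all libraries together, prior count 0.125). The SE of an LFC was its size over the square root of F. All tests are two-sided, adjusted over all genes tested, and DESeq2 1.42.0 was an alternative. Calls needed an adjusted p not above 0.05 with an LFC of 1 or more in size.

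Totals of 16452539 to 23117080 counts gave each member at least 353 counts per library, apart from Igfbp2 with 5 to 9720. Where nothing ties a library to its own culture, p-values measure only the spread between these samples. Counts of libraries in 1 group differed by a mean chi-square per gene of 9.11 or more, so none were duplicates. Same-numbered vehicle and Dex libraries were paired in GRL/L (correlations of deviations 0.26 to 0.58) and GRD+L/D+L (0.55 to 0.85), taken from the data since the labels name no shared culture, and were not in GRwt/wt (-0.06 to 0.53). GRD/D has only 2 such pairs (-0.17 and 0.24).

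RPKM used the exon length in GENCODE M21 (GRCm38). Promoters came from RefSeq (GRCm38.p6), with starts for all 8 members. The members, lists and tests were chosen with earlier results of these data known. Genes named are the members, Nr3c1 and Fkbp5, up to 3 called genes of the largest absolute LFC per list contrast, and the 2 genes most like each member. Alternatives were other scalings (RLE, upper quartile), filters (none, at least 10 counts in every library), a prior count of 2, adjusted p alone, DESeq2, fits of the compared genotypes alone, a replicate block, and omission of each library or of GRwt/wt vehicle replicates 1 and 3. Results of 1 gene that acts below the receptor, and the counts of calls in that list, are not reported here. The statistics were tested on simulated data.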

Additional observations from a re-analysis of the deposited data

How the results depend on the processing

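The members' calls depended little on scaling, filter or prior count, and Igfbp5 in GRL/L against GRwt/wt in vehicle was called in all 32 alternatives. With adjusted p alone, 2 members instead of 1 passed in GRL/L (23% of all genes) and 1 instead of 0 in GRD+L/D+L (20.4%) against GRwt/wt in vehicle. DESeq2 called 1 member instead of 0 in GRD+L/D+L against GRwt/wt under Dex, in GRL/L against GRD/D in vehicle and in GRD+L/D+L against GRL/L in vehicle, where it called 816, 361 and 174 of all genes against 433, 170 and 15 in edgeR. For Dex in GRwt/wt it called 286 genes, and the replicate block 199, against 25. With only the genotypes compared, the last 2 comparisons called 3 and 1 (6.5% and 1.42% of all genes), and without both GRwt/wt vehicle replicates 1 and 3 they called 1 each (3.06% and 0.957%). Leaving out 1 library at a time gave 1 to 2 called members for GRL/L against GRwt/wt in vehicle, and 0 to 1 for GRD+L/D+L against GRwt/wt in vehicle, GRL/L against GRwt/wt under Dex, GRL/L against GRD/D and GRD+L/D+L against GRL/L.

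Values under alternatives were counted for members whose reported LFC was at least 0.5 in size. Of these 1801 values, 10 changed sign, 16 passed the threshold where the reported value had not, and 1775 did neither. All 10 sign changes came from leaving out 1 library, and the cause was not tested. Smaller LFCs were left out of this count, and some of them changed sign in other alternatives. For the Dex response of Igfbp4 in GRD/D against GRwt/wt the LFC was -0.04, and 0.44 with the replicate block. That of Igfbp7 for Dex in GRD+L/D+L was -0.003, and 0.007 with DESeq2. The LFC of Igfbp4 ran from -0.22 to 0.94 for Dex in GRwt/wt, from -1.06 to 0.11 and -1.09 to 0.21 for the difference in Dex response of GRD+L/D+L and GRL/L, and from -1.08 to 0.21 for GRL/L against GRwt/wt under Dex, each time turning without GRwt/wt Dex replicate 2. The LFC of Igfbp2 ran from -0.059 to 1.35 for the Dex response of GRD/D against GRwt/wt (below 0 without GRD/D Dex replicate 2 or GRwt/wt vehicle replicate 2), and, turning without GRD+L/D+L replicate 1, from -6.41 to 1.72 and -6.21 to 1.56 for GRD+L/D+L against GRwt/wt in vehicle and under Dex, from -5.63 to 2.89 against GRL/L and from -3.61 to 4.67 against GRD/D.

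With the replicate block, 0 members were called for Dex in any genotype or for its difference between genotypes, as without it, and Igfbp6 in GRwt/wt, whose numbers did not pair the libraries, had an LFC of -0.52 (edgeR adjusted p = 0.038). With 3 libraries or fewer per group, Igfbp2 in GRD+L/D+L replicate 2 also rests on 5 and 6 counts, so that its ratios carry counting error.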
